A study of Sus scrofa with 5 samples.

Results

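The 41 genes described here were taken by symbol as initiation and elongation factors of translation, and all are called factors below. Some, such as EEF1AKMT1, EEF1E1 and EIF4EBP2, are not factors in the narrow sense. The 41 genes were measured in the backfat of 5 pigs on Affymetrix porcine arrays. A probe set is the group of short probes that reports on one transcript. It was taken when its annotation gave exactly 1 symbol beginning with EIF1 to EIF6 or with EEF, leaving out the EIF2AK kinases and EIF4ENIF1. This gave 64 probe sets. For each gene the one with the highest mean over the 5 arrays was kept, and 25 genes had 1 probe set while 16 had several. They are 41 of the 6765 genes with a symbol of their own on the array, where 24000 probe sets were tested.

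The animals were females of an Iberian × Landrace backcross, kept on the same freely offered cereal diet and untreated. They were slaughtered at a nearly uniform age, and the paper describes them as fasting at slaughter. BC4, BC5 and BC6 belonged to the H group, whose muscle held more polyunsaturated fatty acids, and BC2 and BC3 to the L group, whose muscle held more saturated and monounsaturated fatty acids. The labels name the animals only, and the group follows from the numbering of the animals in the study. Sibs were not placed in the same group, and each array is a single animal of a segregating cross. The comparison asks whether gene expression in adipose tissue differs between pigs chosen for muscle fatty acid composition. Values are on the log2 scale, and a difference is the mean of H minus the mean of L.

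Some arrays stood apart or went against a label. All 5 animals are labelled female, yet EIF1AY, which is Y-linked, was above the lowest value of the arrays (2.17, called the floor here) on BC2, at 3.04, and at the floor on the other 4. A probe set shared by EIF2S3 and a gene placed on chromosome Y was at 7.17 on BC2 and at the floor on the others, while SRY was at the floor on all 5. Of other genes placed on chromosome Y, LOC396706 was at the floor on all 5. LOC100624648 was at 9.05 on BC2 and between 8.67 and 9.42 over all 5, so signal at such an annotation was not particular to BC2. The cause was not tested. EIF1AY was singled out after its values were seen. The extraction note names liver and the tissue label names backfat. Of 7 listed adipocyte markers 5 were measured, and their mean was 11.70 to 12.23 in L and 10.47 to 12.24 in H. It was lowest on BC5, where LEP, the hormone leptin, was at 4.41 against 8.27 to 10.48 on the other arrays and ADIPOQ, the hormone adiponectin, at 9.09, while FABP4, a fatty acid carrier, lay between 15.4 and 15.5 on all 5. All 7 hepatocyte markers were measured, with a mean of 3.99 to 4.34 in L and 4.03 to 4.41 in H. SERPINA1 was at the floor on all arrays, TTR at or near it and ALB between 2.58 and 4.69, but APOA1, an apolipoprotein, lay between 11.29 and 12.57 and was higher on each H array than on both L arrays. The 3′ control set of GAPDH, a quality control of the array, exceeded the 5′ set by 1.52 on BC2 and 1.82 on BC3. On BC4, BC5 and BC6 the gap was 1.90, 2.49 and 1.81. The poly-A control RNAs added to each sample averaged 7.58 on BC3 and 7.29 on BC5 but only 4.69 to 4.93 on the other 3 arrays. Skeletal muscle markers (4 measured of 6 listed) also had their highest means on BC3 and BC5, and their mean level was 2.74 to 4.01 in L and 2.58 to 5.21 in H. Their part in the results below was not tested, and in bulk tissue fewer cells of a type and less RNA per cell cannot be told apart.

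Translation begins when the small ribosomal subunit, loaded by eIF2 with the initiator tRNA and held by eIF1, eIF1A and eIF3, is brought to the capped end of an mRNA by eIF4F. eIF4F is made of the cap-binding protein eIF4E, the scaffold eIF4G and the helicase eIF4A, and proteins of the 4E-BP family hold eIF4E back until they are phosphorylated through mTOR, which responds to insulin and amino acids. Phosphorylation of eIF2 blocks its exchange factor eIF2B and slows initiation in stressed cells. Once the subunits have joined, eEF1A brings each charged tRNA to the ribosome, and the eEF1B complex recharges eEF1A with GTP. In adipocytes this machinery serves the synthesis of lipogenic enzymes and secreted proteins, and much of its control is on protein phosphorylation, which an mRNA array does not read.

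Most of these factors had bright probe sets, with 35 of 41 in the top 25% on all 5 arrays, as were 37.7% of all genes. For most factors the animals lay close together. The highest and the lowest animal were 0.34 apart for the median factor, against 0.51 for the median of all 6765 genes and 0.60 for genes above the floor on all arrays. The factors were also brighter, with a median level of 10.61 against 7.15 for all genes and 7.77 for those above the floor. Genes of matching brightness were not compared. By the brightest probe sets, only EIF4EBP2, a member of the 4E-BP family, had a range above 1, where 1395 of all genes did. Of the 23 dimmer probe sets of the factors, those with a range above 1 belonged to EIF5A (1.44), EEF1E1 (1.33), EIF4H (1.04), EIF3M (1.04) and EEF1A1 (1.0005). No factor passed the threshold between H and L, set in limma at a p of 0.01, at 0.1 after adjustment and at 1.2-fold, and 0.0% of all probe sets passed it. The adjusted p from limma was 1 for each of the 41. At an unadjusted p under 0.05 there were also 0 factors in either direction, where 1.6% of all probe sets were higher in H and 1.57% were lower.

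The mean was higher in H for 22 factors and lower for 19, or for 22 and 18 of the 40 without EIF1AY. With median centring of the arrays 18 of 41 were higher, and without BC3 30 of 41 were, so the balance has no settled direction. The median difference was 0.0065 (0.010 without EIF1AY, -0.04 with median centring and 0.07 without BC3), with 0 for all genes, and the median size of the difference was 0.083 against 0.13 for all genes. For 6 of 41 factors, or 5 of the 40 without EIF1AY, the difference reached a fold of 1.2 in either direction. This is 14.6% of the factors, where 28.2% of all genes and 23.4% of all probe sets reached it. These shares are not matched for brightness. The 95% interval of the difference from limma lay within 1 log2 unit of 0 for 37 factors and within 0.5 for 23. Smaller differences than these bounds are therefore not excluded by 5 arrays. Every H animal was above both L animals for 4 of 40 factors with distinct values (EIF1B, EIF3D, EIF4E and EIF4G2), and below both for 0 of 40. Over all probe sets with distinct values these shares were 11.5% above and 9.38% below.

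**Figure D1:**
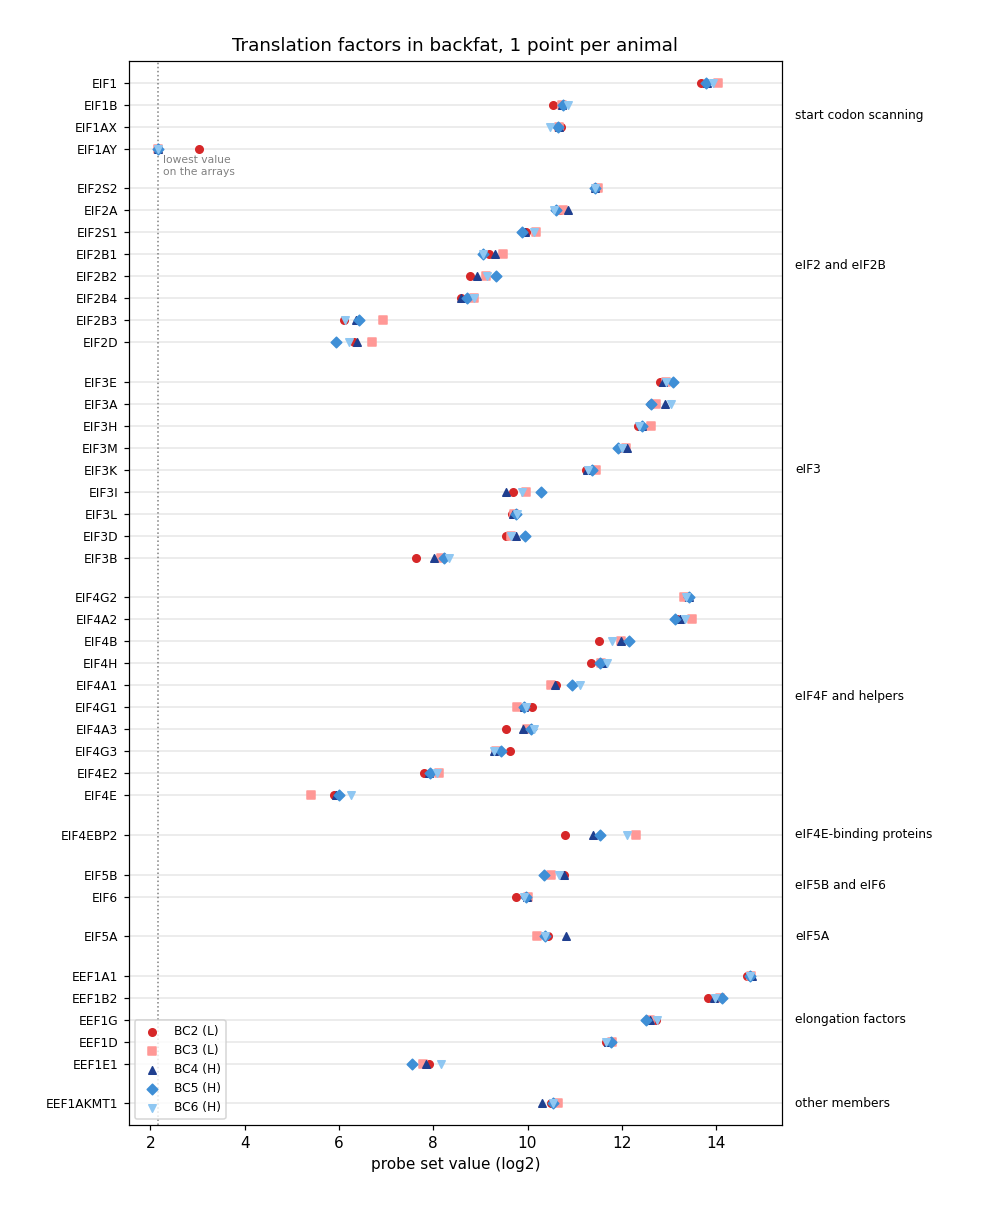
Log2 value of the 41 translation factors, with each animal as a point (L animals in red, H animals in blue), ordered by role and then by mean; the dotted line is the floor at 2.17. The points of most factors overlap at this scale, EIF4EBP2 is spread over 1.52, and EIF1AY leaves the floor on BC2 only.

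The brightness of a probe set depends on its probes as well as on the transcript, so the order of the factors is an order of probe sets and not of mRNA amounts. It hardly moved between animals. EEF1A1, EEF1B2 and EIF1 were ranked 1, 2 and 3 of the 41 on every array, and EIF2B4 and EIF1AY were ranked 34 and 41 on every array. Together with these 5, 25 factors kept within 2 places. The largest move was 7 places, for EIF4A3, from 31 on BC2 to 24 on BC6. Of the 41, 40 lay above the array's median on all 5 arrays, as did 68.7% of all genes, and 26 lay in the top 10% of probe sets on all 5, as did 16.5% of all genes.

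Among the elongation factors, EEF1A1, which carries charged tRNAs to the ribosome, was at 14.66 on BC2 and 14.75 on BC3 of the L group, and at 14.77, 14.71 and 14.73 on BC4, BC5 and BC6 of the H group. The whole range of 0.11 was among the 3 smallest of the factors. The difference was 0.03 (standard error 0.036, 95% interval -0.08 to 0.14), and it turned to -0.01 with median centring of the arrays. Its probe set is one of the array maker's quality controls, placed in the middle of the transcript. The 3′ control set of this transcript exceeded the 5′ set by 0.66 on BC2 and 0.77 on BC3, by 0.71 on BC4 and 0.74 on BC6, and by 1.0 on BC5, where the gap was widest. EEF1A1 is close in sequence to other copies, and which of them its probes read was not tested.

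The subunits of the exchange complex eEF1B had ranges of 0.14 (EEF1D) to 0.28 (EEF1B2). EEF1B2, one of its exchange subunits, was at 13.84 and 14.09 in L and at 13.95, 14.12 and 13.97 in H. EEF1D, the other exchange subunit, was at 11.67 and 11.79 in L and at 11.70, 11.77 and 11.66 in H. EEF1G, the structural subunit, was at 12.72 and 12.59 in L and at 12.60, 12.52 and 12.74 in H. In each of the 3 the groups overlapped, with differences of 0.05, -0.02 and -0.04. EEF1E1, which is named for this family but sits in the complex of tRNA synthetases, varied more, from 7.55 on BC5 to 8.16 on BC6, both of the H group. Its difference of 0.0043 had no settled direction, since median centring gave -0.04, quantile normalization gave -0.02 and its other probe set gave -0.37. The symbol rule also took EEF1AKMT1, a methyltransferase that modifies eEF1A, which was at 10.50 and 10.65 in L and at 10.30, 10.55 and 10.55 in H.

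Of the 4 factors that scan for the start codon, EIF1AY included, 1 had a higher mean in H. EIF1, which guards the choice of start codon, was at 13.68 and 14.04 in L and at 13.81, 13.79 and 13.94 in H. Both ends of its range were L animals, and the difference was -0.01 (standard error 0.139). Its paralog EIF1B was at 10.54 and 10.73 in L and at 10.73, 10.76 and 10.86 in H. Here every H animal was above both L animals, but BC3 and BC4 were only 0.0036 apart. The difference of 0.15 (standard error 0.082) had an unadjusted p of 0.160 in limma and ran from 0.05 without BC2 to 0.24 without BC3. EIF1AX, the X-linked form of eIF1A, was at 10.70 and 10.67 in L and at 10.68, 10.64 and 10.49 in H. EIF1AY differed by -0.43 (standard error 0.306), which rests on BC2 alone. Without BC3, the other L array, EIF1AY passed the threshold in limma, but this follows from the 3 H arrays all being at the floor with no spread, and the test carries no information. Without BC2 its arrays were all at the floor.

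For eIF2 and its exchange factor eIF2B, the mean was lower in H for 7 of 8 members, with a median difference of -0.06. Without BC3 the median was 0.03 and 5 of 8 were higher in H, so this direction rests on 1 animal. The 8 were placed here by symbol. They include EIF2A, with a difference of -0.04, and EIF2D, which are not subunits of eIF2 or eIF2B. EIF2S2, the beta subunit of eIF2, was at 11.42 and 11.48 in L and at 11.44, 11.43 and 11.44 in H. Its range of 0.061 was the smallest of the 41 factors. EIF2S1, the alpha subunit, on which the stress kinases act, was at 9.96 and 10.18 in L and at 9.96, 9.89 and 10.14 in H, with a difference of -0.07. EIF2B3, the gamma subunit of eIF2B, was at 6.11 and 6.92 in L and at 6.36, 6.42 and 6.13 in H. Both of the extreme animals were again those of the L group, and the range of 0.82 was among the 3 largest of factors above the floor. The difference of EIF2B3 was -0.21, but -0.62 without BC2 and 0.19 without BC3. EIF2D, which is named with this family but loads tRNA without eIF2, had the smallest p of these members. It was at 6.33 and 6.69 in L and at 6.39, 5.93 and 6.22 in H, and the difference of -0.33 (standard error 0.208) had an unadjusted p of 0.201 in limma. Between the 2 arrays with high poly-A controls it was -0.76, and among the other 3 it was -0.02.

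The scaffold complex eIF3, which holds the small subunit, had 9 measured subunits with a median difference of 0.06. The mean of 6 was higher in H and that of 3 was lower. Without BC3 all 9 were higher, with a median of 0.16, and without BC2 5 of 9 were, with a median of 0.02. EIF3E, its brightest subunit, was at 12.80 and 12.95 in L and at 12.87, 13.08 and 12.94 in H. EIF3D, a subunit that can itself bind the cap, was at 9.55 and 9.65 in L and at 9.77, 9.94 and 9.65 in H. The groups of EIF3D did not overlap, but BC6 and BC3 were separated by 0.003, and the difference of 0.19 (standard error 0.108) had an unadjusted p of 0.174 in limma. EIF3L stood out for its evenness, at 9.67 and 9.71 in L and at 9.70, 9.75 and 9.78 in H. EIF3I, a subunit of the same complex, spread over 0.74, from 9.53 on BC4 to 10.28 on BC5, both H animals. EIF3B, a core subunit, had the largest difference of the complex, 0.29 (standard error 0.221), with BC2 lowest at 7.64 and the other 4 animals between 8.02 and 8.34.

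Among eIF4F and its helpers, 8 of 10 members had a higher mean in H, or 6 of 10 with median centring. The median difference was 0.11, but 0.05 without BC2. The 10 include EIF4A3, which is placed here by its symbol, and without it 7 of 9 were higher, with a median of 0.07. This role held the largest differences upward. EIF4E, which binds the cap, was at 5.90 and 5.40 in L and at 5.94, 6.0 and 6.25 in H. Every H animal was above both L animals, by a gap of 0.045 between BC4 and BC2. The difference of 0.42 (standard error 0.210, 95% interval -0.21 to 1.04) had an unadjusted p of 0.132 in limma, and it was 0.67 without BC2 and 0.17 without BC3. Its probe set was dim, with 56.0% to 61.7% of probe sets below it. EIF4E2, a cap-binding relative, differed by 0.01.

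The 3 forms of the helicase eIF4A had differences of both signs. EIF4A1, the form of dividing tissue, was at 10.60 and 10.50 in L and at 10.58, 10.95 and 11.12 in H. BC4 lay between both L animals, and the difference of 0.33 (standard error 0.195) came from BC5 and BC6. EIF4A2, the form known from quiescent tissue, was at 13.17 and 13.49 in L and at 13.24, 13.14 and 13.34 in H, a difference of -0.09. EIF4A3, a part of the exon junction complex and not of eIF4F, was at 9.54 and 9.99 in L and at 9.91, 10.07 and 10.14 in H. The difference of EIF4A3 was 0.27 (standard error 0.180), but 0.05 without BC2, the lowest animal. Whether the difference between the groups was unequal among the 3 was not tested.

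The eIF4G scaffolds also had differences of both signs. EIF4G2, which lacks the eIF4E-binding part and serves cap-independent initiation, was at 13.36 and 13.31 in L and at 13.43, 13.42 and 13.36 in H. All 3 H arrays were above both L arrays, although BC6 and BC2 were 0.002 apart. Its difference of 0.07 (standard error 0.031) had the smallest p of the 41 factors, an unadjusted p of 0.105 in limma. EIF4G1, the main scaffold, was at 10.09 and 9.78 in L and at 9.93, 9.92 and 9.97 in H, so that the 3 H animals lay inside the gap between the L animals. EIF4G1 differed by 0.0065, and by 0.16 without BC2, -0.15 without BC3 and -0.04 with median centring. EIF4G3, another form, was at 9.64 and 9.33 in L and at 9.30, 9.44 and 9.29 in H, a difference of -0.14. EIF4H and EIF4B, helpers of the helicase, had higher means in H, by 0.16 and 0.23, and BC2 was the lowest animal for both.

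**Figure D2:**
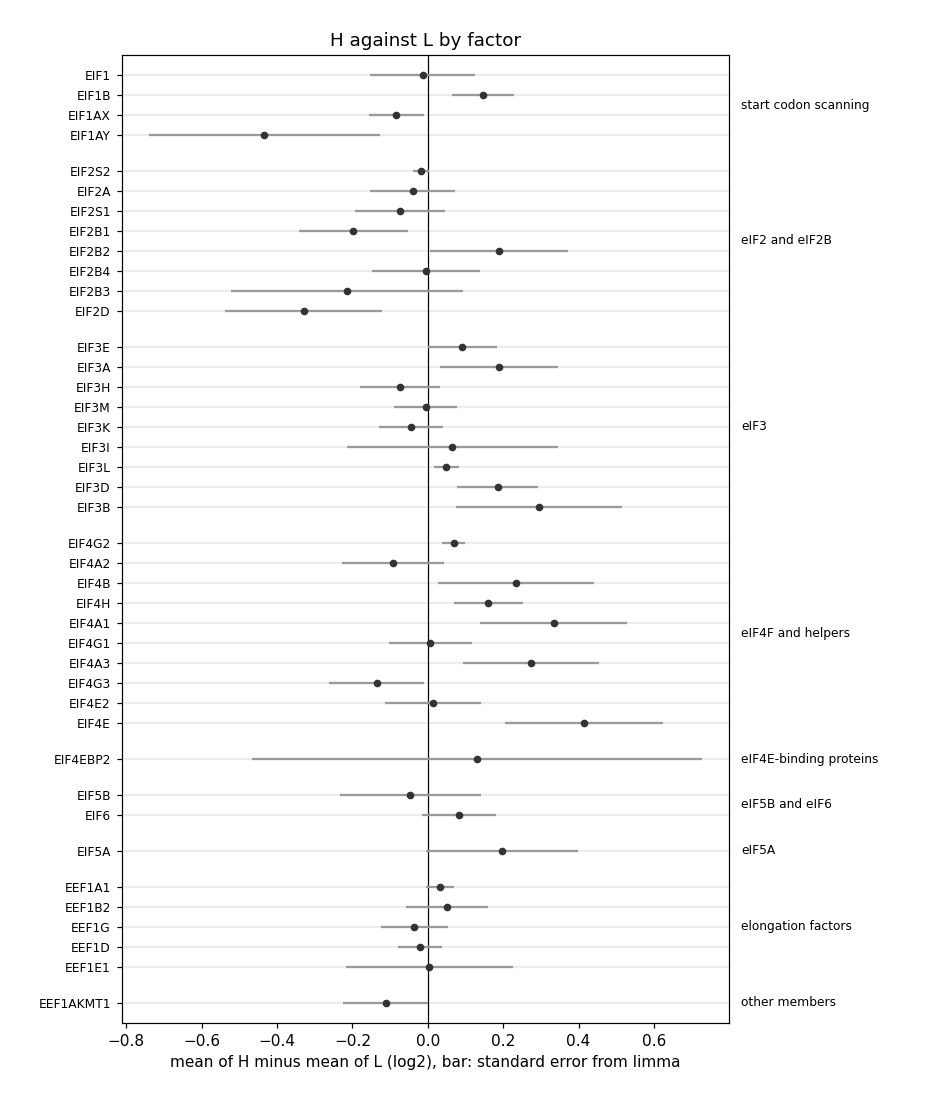
Mean of H minus mean of L on the log2 scale for each factor, with the standard error from limma as a bar, ordered by role. Most points lie near 0; EIF4E, at 0.42, and EIF1AY, at -0.43, are the outermost, and the bar of EIF4EBP2 is the widest, at 0.597.

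EIF4EBP2, an inhibitor that keeps eIF4E from eIF4G, was the most variable of the factors. It was at 10.79 on BC2 and 12.31 on BC3 in the L group, and at 11.39, 11.54 and 12.10 on BC4, BC5 and BC6 in the H group. The lowest and the highest animal were thus the 2 L animals, and the range was 1.52. The difference of 0.13 (standard error 0.597) was -0.63 without BC2 and 0.89 without BC3. A second probe set of EIF4EBP2 had the same lowest and highest animal, at 10.52 on BC2 and 11.47 on BC3, with the H animals at 11.14, 11.20 and 11.38. The other ones did not follow them. The next in brightness was at 9.16 and 9.17 in L and at 8.91, 8.53 and 9.39 in H, and the one after it was at 8.58 and 8.66 in L and at 8.56, 8.32 and 8.61 in H. In both, BC5 was lowest and the L animals were close to each other. The dimmest was flat at 2.20.

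**Figure D3:**
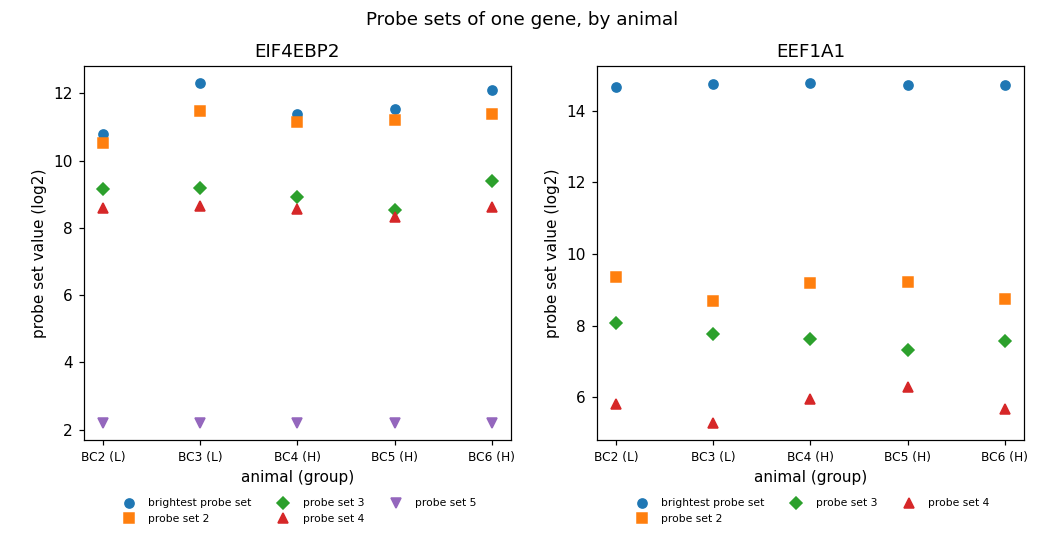
Log2 value on each of the 5 arrays of every probe set annotated to EIF4EBP2 (5 probe sets) and to EEF1A1 (4 probe sets), numbered by brightness. The 2 brightest probe sets of EIF4EBP2 are lowest on BC2 and highest on BC3, and the dimmer ones of EEF1A1 vary more than its brightest.

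The differences were small for EIF5B and EIF6 and larger for EIF5A. EIF5B, which joins the subunits, was at 10.78 and 10.50 in L and at 10.78, 10.34 and 10.66 in H. EIF6, which keeps the subunits apart until the large one is ready, was at 9.75 and 10.02 in L and at 9.99, 9.97 and 9.93 in H. EIF5A, which carries hypusine and helps the ribosome over difficult stretches, was at 10.44 and 10.20 in L and at 10.81, 10.36 and 10.37 in H. Only BC4 of the H animals lay above both L animals for EIF5A, and its difference was 0.20 (standard error 0.201). The differences of EIF5B and EIF6 were -0.05 and 0.08, and in both the groups overlapped.

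Differences in spread between roles were not tested. The median range was 0.22 for the 5 elongation factors, 0.29 for the 9 eIF3 subunits, 0.35 for the 10 members of eIF4F and its helpers, and 0.36 for the 8 members of eIF2 and eIF2B. It was 0.34 for the 4 start codon factors and 0.35 for EIF5B and EIF6, and the single range of EIF5A was 0.62. Members of a role overlapped widely with those of others, as EIF2S2 (0.061) and EIF2B3 show for one role. The largest ranges among factors above the floor on all arrays were those of EIF4EBP2, EIF4E (0.85) and EIF2B3 (0.82), and the smallest those of EIF2S2, EEF1A1 and EIF3L. EIF4E, EIF2D and EIF2B3 had the dimmest probe sets of these factors, while EIF4EBP2 was bright.

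**Figure D4:**
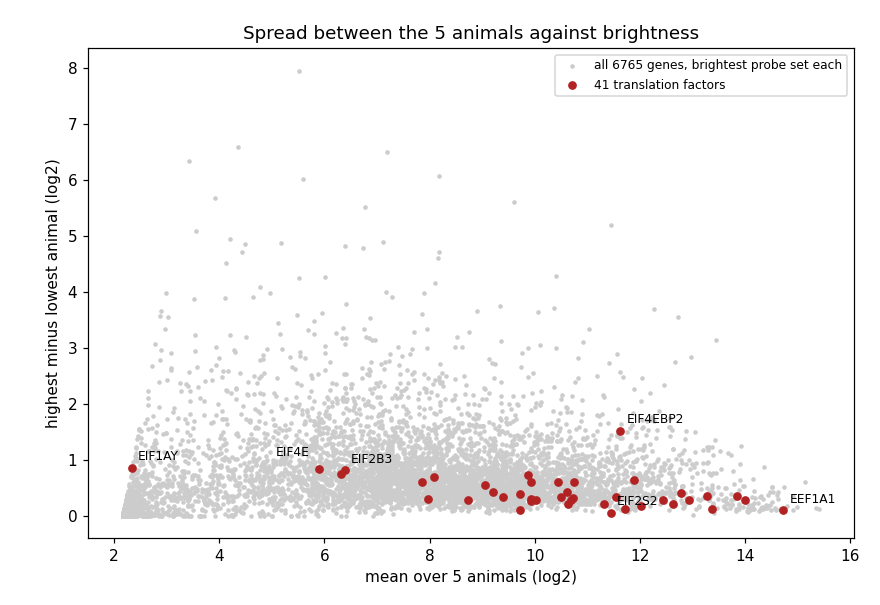
Highest minus lowest animal (log2) against the mean over 5 animals (log2) for all 6765 genes, grey, and the 41 translation factors, red. The factors lie toward the lower edge of the grey points at high brightness, apart from EIF4EBP2 at 1.52.

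The lowest and highest animals were often the same ones. Of the 40 factors above the floor on all arrays, BC2 was the lowest animal for 19 (47.5%) and BC3 the highest for 15 (37.5%). Over all 5775 such genes BC2 was counted lowest for 30.6% and BC3 highest for 16.5%. Only 4839 of these genes had distinct values on the 5 arrays, and a tie was counted for the first animal in numbering. All 40 factors had distinct values, so the shares of factors and of all genes are not directly comparable. The median deviation of the 40 factors from their own mean over 5 animals was -0.09 on BC2 and 0.06 on BC3. On the H animals BC4, BC5 and BC6 it was -0.02, 0.0027 and 0.03. Both outer animals were of the L group, so they offset each other in its mean. Between the 2 arrays with high poly-A controls (BC5 against BC3), 16 of 41 factors were higher in H, with a median difference of -0.03. Among the other 3 arrays (BC4 and BC6 against BC2), 32 of 41 were higher in H, with a median of 0.11. The sign was the same in both for 20 of 41.

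**Figure D5:**
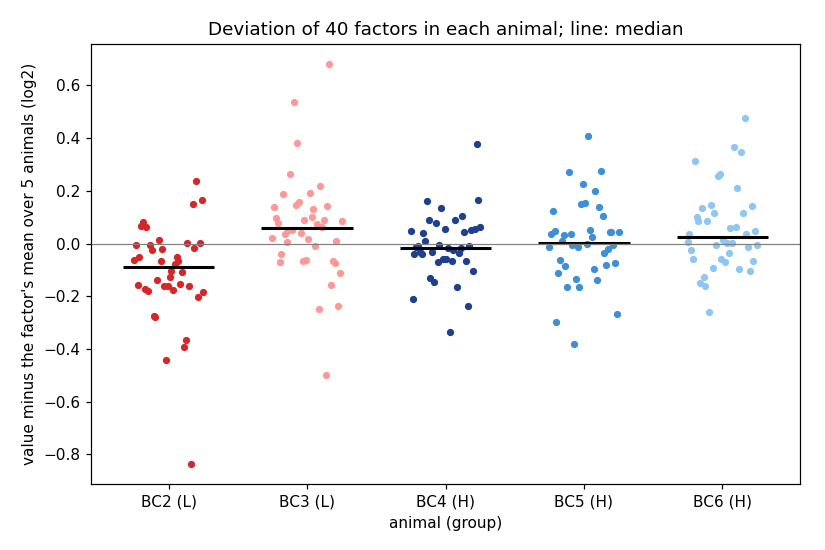
Value minus the factor's mean over the 5 animals (log2) for the 40 factors above the floor, 1 point per factor and a line at the median of each animal. The median is lowest on BC2, at -0.09, and highest on BC3, at 0.06, both of the L group.

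The choice of probe set mattered for some factors. The 16 genes with several had 23 further probe sets, of which 15 gave the direction of the brightest, 6 the opposite one and 2 none. The opposite ones belonged to EEF1A1, EEF1E1, EIF1, EIF4EBP2 and EIF4H. One further probe set of EEF1A1 was at 8.06 and 7.77 in L and at 7.62, 7.31 and 7.56 in H, with all H arrays below both L arrays and a difference of -0.42. Another, at 5.81 and 5.28 in L and at 5.95, 6.28 and 5.68 in H, differed by 0.42 in the other direction. The array has no such probe set for 19 of the 60 genes that the symbol rule finds among RefSeq genes of the pig, among them EEF2, the translocase, its kinase EEF2K, EIF5, EIF4EBP1, EEF1A2 and EIF5A2, and these were not analysed here.

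Of 40 listed genes that act on or with these factors, 17 were measured, none passed the threshold, and 0 were under an unadjusted p of 0.05 in limma. The mean was higher in H for 6 and lower for 11, with a median difference of -0.07. Of the 16 with distinct values, every H animal was above both L animals for 2 (PPP1R15B and RHEB) and below both for 3. Over all probe sets with distinct values these shares were 11.5% above and 9.38% below. The largest differences were those of stress-response genes whose mRNAs rise when eIF2 is phosphorylated. DDIT3, a transcription factor of the stress response, was at 8.58 and 7.22 in L and at 6.19, 6.73 and 6.61 in H. All 3 H arrays lay below both L arrays, and the difference was -1.39 (standard error 0.520, unadjusted p = 0.0672 in limma). It was -0.71 without BC2 and -2.07 without BC3. ASNS, asparagine synthetase, was at 9.22 and 8.16 in L and at 7.96, 7.28 and 7.47 in H. Its groups did not overlap either, and the difference of -1.12 (standard error 0.449, unadjusted p = 0.0795 in limma) was -0.59 without BC2 and -1.65 without BC3. For both genes BC2 was the highest animal, and it was lowest for 19 of the translation factors. Over all 5775 genes above the floor on all arrays, BC2 was counted highest for 25.3% and lowest for 30.6%. A tie was again counted for the first animal in numbering. Whether the values of these genes and of the factors on BC2 are linked was not tested.

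ATF4, the factor that drives both of these genes and is itself regulated at translation, differed by -0.04, from 12.16 on BC5 to 12.68 on BC6. PPP1R15B, a subunit of the phosphatase that restores eIF2, was at 5.61 and 5.91 in L and at 5.95, 6.03 and 6.30 in H, a difference of 0.34 that was 0.19 without BC2 and 0.48 without BC3. PPP1R15A, its inducible relative, differed by 0.07, with BC2 lowest at 6.56 and BC3 highest at 7.58. PAIP1, a partner of the poly(A)-binding protein, was at 11.23 and 11.21 in L and at 11.08, 10.82 and 11.06 in H. All H arrays of PAIP1 were below both L arrays, and the difference was -0.23 (standard error 0.103, unadjusted p = 0.0995 in limma). PABPC1, the poly(A)-binding protein itself, was even, at 13.52 and 13.68 in L and at 13.66, 13.64 and 13.50 in H.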

How the data were processed

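Backfat RNA of 5 pigs was hybridized to porcine arrays of Affymetrix, each animal on its own array. The deposited files hold log2 values per probe set, which the authors had corrected for background and normalized between arrays. GCRMA is named in the methods but RMA in the submitters' processing notes, and which was used is not settled. Of 24123 probe sets, 123 controls were left out. The control set of EEF1A1 was kept, since the rule selects it. limma 3.58.1 (R 4.3.3) was run on the remaining 24000, as H minus L without covariates, with Benjamini-Hochberg adjustment over all of them. The number of arrays limits the precision.

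The members and lists were chosen with earlier results of these data known. Named by rule were, per role, the member with the smallest p and that with the highest mean, then the 3 largest and 3 smallest ranges, paralogs, members with an opposite probe set, and up to 4 related genes with the smallest p. Other members and related genes were named after their values were seen. RefSeq (Sscrofa11.1) served for names only. The alternatives were other thresholds, leaving out the dimmest 40% of probe sets, other scalings, variance models, array weights, other probe sets, members in the narrow sense and leaving out each animal. Those chosen after seeing the data were the poly-A control split as a block, EEF1A1 by another probe set and leaving out members at the floor. The limma step alone was tested on simulated data, with planted differences larger than any found for the factors. The ranks, ranges and overlap counts were not tested in this way.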

Additional observations from a re-analysis of the deposited data

How the results depend on the processing

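With all 5 arrays, no alternative passed a factor. Without 1 animal, 0 to 1 passed, the 1 being EIF1AY without L replicate 3 (BC3), where its H arrays have no spread and the test carries no information. The count at an unadjusted p under 0.05 was 1 with quantile normalization (EIF3L), 1 with the mean over a gene's probe sets (EIF2B1) and 1 to 4 without 1 animal. For these counts of factors no share of all probe sets in the same setting is given. Whether they lie above or below that background was therefore not tested. The median difference was -0.0099 to 0.0738 without 1 animal. The count of factors without overlap was 6 to 25 without 1 animal and 12 with the poly-A control split as a block. As shares of factors with distinct values, against all probe sets in the same setting, these were 55.0% against 42.2% without BC2, 62.5% against 55.1% without BC3, 32.5% against 35.1% without BC4, 17.5% against 31.4% without BC5, 15.0% against 38.1% without BC6 and 30.0% against 38.1% with the block. Of 23 named factors, 11 kept their direction under all alternatives run. The direction turned with median centring for EEF1A1 (-0.0104), EEF1E1 (-0.0380) and EIF4G1 (-0.0358), with quantile normalization for EEF1E1 (-0.0191) and EIF2S2 (0.0132), with the mean over probe sets for EEF1E1 (-0.183) and EIF1 (0.0334), with the most variable probe set for EEF1E1 (-0.370) and EIF4H (-0.0999), with the block for EEF1E1 (-0.0486), EIF1 (0.0035) and EIF4G1 (-0.0187), and with array weights for EIF5B (0.0217). Without 1 animal the difference ran from -0.0099 to 0.0736 for EEF1A1, -0.151 to 0.155 for EEF1E1, -0.194 to 0.166 for EIF1, -0.622 to 0.194 for EIF2B3, -0.0483 to 0.0127 for EIF2S2, -0.256 to 0.0696 for EIF4A2, -0.630 to 0.889 for EIF4EBP2, -0.148 to 0.160 for EIF4G1, -0.292 to 0.0198 for EIF4G3, -0.185 to 0.0928 for EIF5B and -0.0517 to 0.216 for EIF6. The causes were not tested. A lone L array was taken to have the spread of the H arrays. No paired analysis was run. No animal number occurs in both H and L, and whether animals of H and L were related is not given.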

Other observations

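Of the genes that the symbol rule finds in RefSeq but that have no probe set of their own here, 3 share 6 probe sets with another gene, and their values cannot be assigned to either. The probe sets shared by EIF4EBP3, of the 4E-BP family, and ANKHD1 were at 9.65 and 9.36 in L and at 9.06, 8.96 and 9.07 in H for the brighter one, with all H arrays below both L arrays. The dimmer one was at 8.30 and 7.44 in L and at 8.29, 7.60 and 8.20 in H, where the groups overlapped. The brighter probe set shared by EIF2S3, the gamma subunit of eIF2, was at 12.32 and 12.50 in L and at 12.46, 12.51 and 12.47 in H. That shared by EIF3G, a subunit of eIF3, and SLC12A8 was at 10.55 and 10.82 in L and at 10.69, 10.88 and 10.58 in H. BC2 was the lowest animal for both, as it was for 19 of the 40 factors above the floor.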
